A study of Mus musculus with 4 samples.

Results

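The 7 genes described here belong to the sarcomere, the contractile unit of striated muscle, and were followed through maps of Argonaute (AGO) binding sites in cytoplasm, made from mouse embryonic stem cells (ESCs) and from myotubes of the C2C12 line. They are Mylpf, Myl1, Myh3, Actc1, Tpm2, Neb and Ttn. They were taken by gene symbol, and every binding cluster that carried the symbol was kept (coordinates are on mm10), which gave 16 of the 3548 clusters, with 3 of 2659 in the ESC library and 13 of 889 in the myotube library. AGO was mapped by PAR-CLIP, in which a photoactivatable nucleoside in RNA is crosslinked to the bound protein by ultraviolet light and then read as a T-to-C conversion. The ESCs carried HA-FLAG-tagged AGO2 under doxycycline control. They received doxycycline at 2.5 ug/ml for 15 h, and the tagged protein was captured with the FLAG-M2 antibody. The myotubes were formed over 2 days by C2C12 cells, an established mouse myoblast line, and their own Argonaute proteins were captured with a pan-AGO affinity peptide, with no transgene. Both cell types were crosslinked at 312 nm for 5 min and separated into cytoplasm and nuclei, and the nuclear libraries were not analysed here. Each group held 1 library, so no difference between the cell types has a replicate check. Cell type, the source of AGO and the capture method changed together and cannot be told apart.

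In the sarcomere, thick filaments of myosin slide along thin filaments of actin, and titin spans from the Z disc to the M band as an elastic spring. A myosin molecule has heavy chains, which carry the motor, and essential and regulatory light chains. Tropomyosin lies along actin and gates the access of myosin, and nebulin runs along the thin filament of skeletal muscle. AGO proteins are guided to messenger RNAs by miRNAs, most often through pairing of the miRNA seed with a site in the 3'UTR, and miR-1, miR-206 and miR-133 are the best known miRNAs of striated muscle.

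Clusters summed to 214955 reads in ESCs and to 135023 in myotubes. The least read cluster had 4 reads in the ESC library and 5 in the myotube library, and every cluster had at least 2 converted positions. Absence from a table thus means that calling limits were not met, and is no value of 0. Over 21883 protein-coding genes of RefSeq, 5.72% had a cluster in the ESC library and 1.6% in the myotube library. Most genes had no cluster, so a marker list without one says little. Of 10 pluripotency markers, the ESC library had clusters on 6 and the myotube library on 0. Of 10 myotube markers, the myotube library had clusters on 5 and the ESC library on 1. That 1 gene was Mylpf, and 3 of the 10 myotube markers (Mylpf, Myh3 and Actc1) are among the genes described here. Lists of fibroblast, blood, smooth muscle and cardiac muscle markers had no cluster, and of 5 markers of neurons the ESC library covered 1, Stmn2, with 6 reads. The smooth muscle list did not hold Acta2, the smooth muscle actin gene, which had 56 reads in myotubes. The part of other cell types in the results was not tested.

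The cluster sequences that carry the results are shown first, 5' to 3' on the transcribed strand as deposited, in lower case. In the first set, capitals mark the final G, after which RNase T1 cuts. They are the leading clusters of Mylpf, Actc1, Tpm2 and Myh3 without one of the elements shown after them.
Mylpf 5'UTR (myotubes): attctcttcctttttccatctG
Actc1 3'UTR (myotubes): ccccctccccatctctcatcaG
Tpm2 3'UTR (myotubes): tttccatctttcctaaccttctaaaG
Myh3 3'UTR (myotubes): acaattctacttaatttccacG
In the next set, capitals mark a sequence element. It is the hexamer AATAAA of polyadenylation signals in Mylpf, whose cluster was called in both cell types, and the start codon in Myl1.
Mylpf 3'UTR (ESCs and myotubes): ccctcAATAAAactcaactg
Myl1 start codon (myotubes): ttaacccatccttttaatcaaaATG
In the last set, capitals mark sites complementary to miRNA bases 2 to 8, and the same bases of the matching mature miRNAs, whose sequences are from RefSeq (GRCm38.p6).
Tpm2 3'UTR (ESCs): tctcctaACATTCCtaacatg
mmu-miR-206-3p: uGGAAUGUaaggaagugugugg
Ttn 3'UTR (myotubes): CATTTCAatcctttcaTACTTGAcctg
mmu-miR-26b-5p: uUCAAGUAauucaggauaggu
mmu-miR-203-3p: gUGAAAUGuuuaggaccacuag

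**Figure D1:**
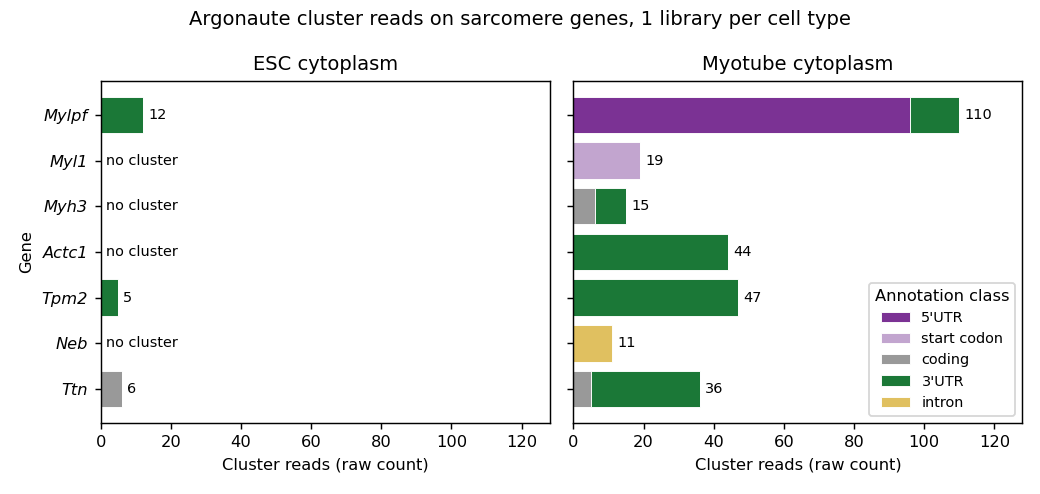
Raw cluster reads (x axis) on each of the 7 sarcomere genes (y axis) in the ESC library (left) and the myotube library (right), 1 library each, coloured by the annotation class of the clusters. Mylpf has 110 reads in myotubes, of which 96 are in the 5'UTR, and Myl1, Myh3, Actc1 and Neb have no ESC cluster.

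Thick filament genes had the cluster with the most reads of the set. Mylpf encodes the regulatory light chain of fast skeletal myosin. In myotubes it had 110 reads in 2 clusters, and in ESCs 12 reads in 1 cluster. The leading cluster lay in the 5'UTR at chr7:127211706-127211727, was 22 nt long and had 96 reads from 17 distinct sequences. It held 87.3% of the gene's myotube reads (95% interval 79.6 to 92.9). It also held 52.2% of the 184 reads of all 9 myotube clusters in 5'UTRs (interval 44.7 to 59.6), where the median cluster had 7 reads and the next highest 27. Intervals on shares here are exact Clopper-Pearson intervals, and all intervals cover counting error only, since reads amplified by PCR with no molecular identifier do not each stand for 1 molecule. By the RefSeq annotation (GRCm38.p6), the cluster began 98 nt past a Mylpf transcription start, which lies downstream of the most upstream start annotated for the gene. Of its 22 bases 86.4% were C or T, against a median of 82.8% in the 9 myotube 5'UTR clusters. ESCs had no cluster in this region.

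The other Mylpf cluster was the same in both cell types. It lay in the 3'UTR at chr7:127214255-127214274, with identical ends in both tables. It had 12 reads in ESCs and 14 in myotubes, from 4 distinct sequences in each. Scaled to 1000000 cluster reads, the level was 55.8 in ESCs and 104 in myotubes, a log2 ratio of ESC over myotube of -0.89 (95% interval -2.14 to 0.33), and this interval included 0. The cluster ended 14 nt before the annotated end of the gene, and its AATAAA began at base 6 and ended 23 nt before the gene's end. The hexamer was found in 59 of 1325 ESC clusters in 3'UTRs (4.45%) and in 11 of 363 in myotubes (3.03%). Conversions were found in 9 of 12 ESC reads and 11 of 14 myotube reads, at 3 positions in each library.

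Myl1 encodes the essential light chains of fast skeletal myosin, a long and a short form made from separate promoters. It had 1 cluster, in myotubes, at chr1:66944903-66944927, with 19 reads from 6 distinct sequences. The cluster was annotated to the start codon and ended in its only ATG. The G of this ATG was the only G of the cluster. Since RNase T1 cuts after G, this end does not mark where binding stopped. Of the 889 myotube clusters 2 were annotated to a start codon, and Myl1 held 19 of their 29 reads. By position it began 129 nt past the Myl1 start given in the RefSeq promoter table, as a genomic distance. It was converted in 15 of 19 reads, and 2 reads had another mismatch.

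Myh3 encodes the embryonic myosin heavy chain, which is made early in muscle formation and in regenerating fibres. Its 2 clusters were both in myotubes and small. The coding cluster at chr11:67082959-67082980 had 6 reads from 2 distinct sequences, and the 3'UTR cluster at chr11:67102225-67102246 had 9 reads from 4 distinct sequences. The latter ended 45 nt before the annotated end of the gene. Skeletal and cardiac myosin heavy chain genes are similar in their coding sequence, and how reads that match several genes were placed is not given in the sources used here. The coding cluster is therefore less certain to belong to Myh3 than the 3'UTR cluster.

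Thin filament genes were bound mainly in 3'UTRs. Actc1 encodes cardiac alpha-actin, which is also made in developing skeletal muscle. It had 44 reads in 1 myotube cluster at chr2:114047378-114047399, from 6 distinct sequences, or 7.33 reads per distinct sequence. Across all myotube 3'UTR clusters the median was 2.42 reads per distinct sequence. Those clusters had a median of 8 reads, and clusters of like depth were not compared. The cluster ended 96 nt before the annotated gene end and was 81.8% C or T.

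Tpm2 encodes beta-tropomyosin. It had 3 myotube clusters, all in the 3'UTR, with 11 reads at chr4:43515866-43515897, 14 reads at chr4:43515689-43515724 and 22 reads at chr4:43515205-43515230, in the order of transcription. They covered 94 nt and had 23 distinct sequences, more than Mylpf with 21. The largest of them had 11 distinct sequences among its 22 reads. The middle cluster, of 36 nt, held AATAAA at bases 20 to 25, at 1974 nt before the most distal annotated end of the gene. In ESCs Tpm2 had 5 reads from 2 distinct sequences, in a cluster at chr4:43514949-43514969. It lay 235 nt further toward the 3' end than the nearest myotube cluster, so that no Tpm2 position was called in both libraries.

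Neb encodes nebulin. Its only cluster was intronic, in myotubes, at chr2:52152804-52152826, with 11 reads from 2 distinct sequences. All 11 reads were converted, and the conversions fell on 2 of its 9 T. Introns held 39 myotube clusters with a median of 11 reads and a maximum of 1313, so the Neb cluster was at the median of its class. No cluster was called on the exons of Neb.

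Ttn, the gene of titin, had 36 reads in 3 myotube clusters and 6 reads in 1 ESC cluster. The 3'UTR held 31 of the myotube reads, in clusters of 19 reads at chr2:76704855-76704881 and 12 reads at chr2:76704675-76704695, which were 159 nt apart. They ended 875 and 695 nt before the annotated gene end. A coding cluster of 5 reads lay far upstream at chr2:76876999-76877024, and the ESC cluster of 6 reads was also in coding sequence, at chr2:76740663-76740682. These coding clusters were 136316 nt apart on the genome and each rested on 2 distinct sequences.

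**Figure D2:**
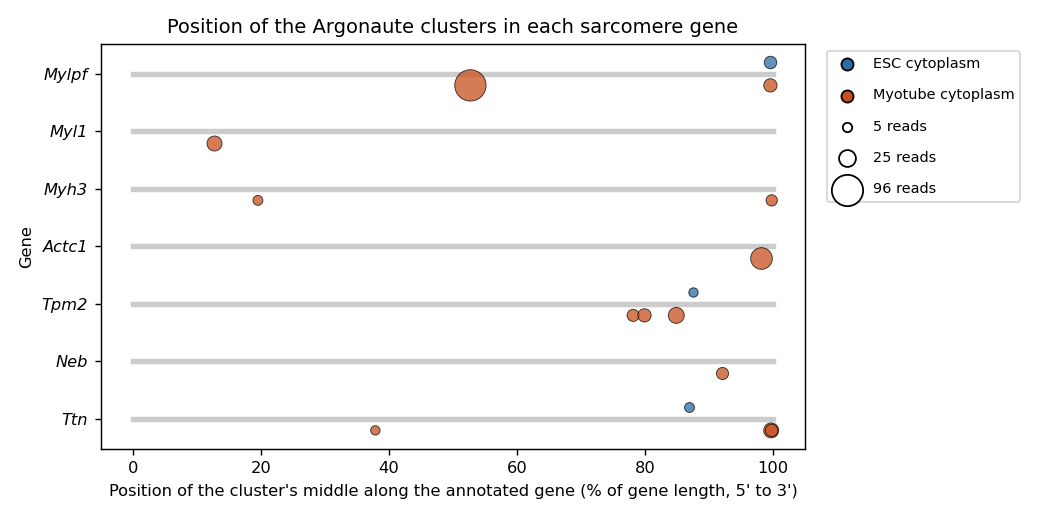
Position of each of the 16 clusters along its gene, as the percentage of the RefSeq gene length from the 5' to the 3' end (x axis), by gene (y axis), with ESC clusters above and myotube clusters below the line and the area of each point growing with reads. The Mylpf 3'UTR clusters coincide, whereas the ESC clusters of Tpm2 and Ttn lie apart from those of myotubes. The 96-read Mylpf cluster lies near the middle because the gene's most upstream annotated start is far from the start next to the cluster.

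The read shares were then set against all genes. The 7 genes took 271 of the 4820 myotube reads on mRNA of nuclear genes (5.62%, interval 4.99 to 6.31) and 23 of 22252 in ESCs (0.103%, interval 0.0655 to 0.155). mRNA clusters here are those in 5'UTR, start codon, coding, stop codon and 3'UTR. RNA abundance was not measured, so more binding per RNA and more RNA cannot be told apart, nor can fewer expressing cells and less RNA per cell. All 7 genes had a myotube cluster and 3 had an ESC cluster. Over the 1707 genes with a cluster in either table, 28.3% had one in myotubes and 85.6% had one in ESCs. Since the genes were chosen with such results known, nothing is read from this difference.

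Reads per covered nt were a gene's reads divided by the summed length of its called clusters. This scale does not correct for transcript length or for the number of clusters. On it, Mylpf ranked 3 of 331 nuclear genes with mRNA clusters in myotubes, at 2.62 reads per nt. Actc1 ranked 5, at 2.00 reads per nt. Myl1 followed at rank 26 with 0.760 reads per nt, Tpm2 at 59 with 0.500, Ttn at 67 with 0.486 and Myh3 at 153 with 0.341, against a median of 0.331 over all 331 genes. Myh3 was near the median. By mRNA reads, not divided by length, Mylpf ranked 3, Tpm2 16 with 47 reads, Actc1 19 with 44, Ttn 27, Myl1 60 and Myh3 80, so the order of Tpm2 and Actc1 turned with the scale. In ESCs the order over 1217 genes was Mylpf with 0.600 reads per nt, Ttn with 0.300 at rank 806 and Tpm2 with 0.238 at rank 1069, against a median of 0.364. Of these, only Mylpf was above the ESC median.

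For the 3 genes with clusters in both tables, the read share was lower in ESCs. Per 1000000 cluster reads, Tpm2 had 23.3 in ESCs and 348 in myotubes, a log2 ratio of -3.90 (exact conditional binomial 95% interval -5.59 to -2.58). Mylpf had 55.8 and 815, a log2 ratio of -3.87 (interval -4.86 to -3.00), and Ttn had 27.9 and 267, a log2 ratio of -3.26 (interval -4.79 to -2.00). All 3 passed a 2-fold difference. Of the 237 genes with a cluster in both tables, 27% were lower in ESCs by that much, and the median log2 ratio was -0.04. Other denominators moved this median by 0.48 (mRNA reads), 0.30 (reads of genes in both tables) and -1.54 (mRNA reads outside the mitochondrial chromosome), and each moves all genes alike. The share of genes past 2-fold lower in ESCs was then 14.3%, 19.8% and 66.2%, in the same order. The 3 sarcomere genes were past it under each of these denominators. The Mylpf difference rested on the 5'UTR cluster, as its 3'UTR ratio above shows. The Tpm2 and Ttn ratios compare clusters at different positions, over 94 and 74 nt in myotubes and 21 and 20 nt in ESCs.

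**Figure D3:**
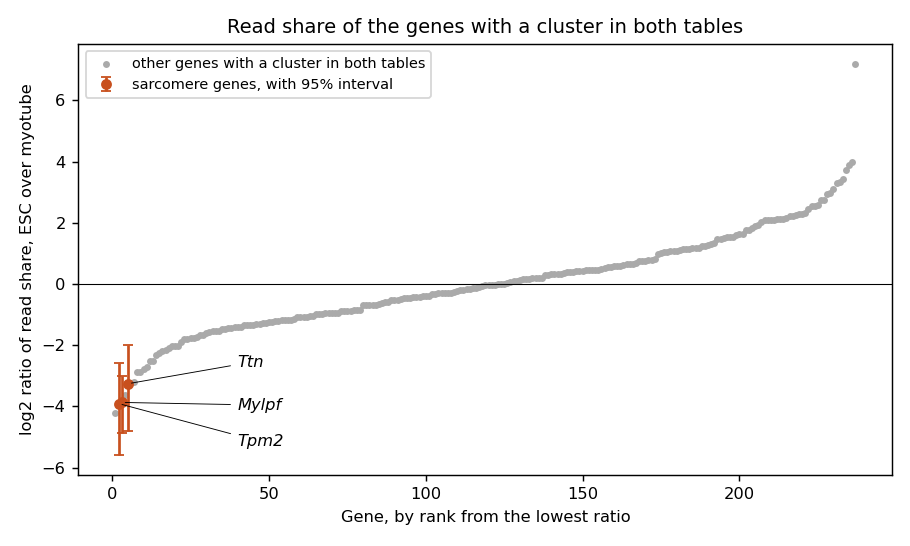
Read share in ESCs over that in myotubes, as a log2 ratio (y axis), for the 237 genes with a cluster in both tables, ordered from the lowest (x axis), with Tpm2, Mylpf and Ttn marked with 95% intervals of counting error. They stand at ranks 2, 3 and 5 from the lowest.

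Genes with a ratio like that of the members were looked for among 149 nuclear genes with mRNA clusters in both tables, by the absolute difference of log2 ratios, which rests on only 2 libraries. Mylpf and Tpm2 were nearest to each other, 0.04 apart. The next nearest to both was Map1b, a microtubule-associated protein, at -3.63, followed by Igfbp5, which binds insulin-like growth factors, at -4.20. Nearest to Ttn were the transcription factor Atf4 at -3.22, Map1b, and the actin-sequestering Tmsb4x at -2.88.

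Most sarcomere clusters lay in the 3'UTR. Of the 13 myotube clusters, 8 were in the 3'UTR (61.5%, interval 31.6 to 86.1), 2 in coding sequence, and 1 each in a 5'UTR, at a start codon and in an intron. Among all 451 myotube clusters on nuclear mRNA, 80.5% were in the 3'UTR (interval 76.5 to 84.0), 16.9% in coding sequence, 2.00% in the 5'UTR and 0.443% at a start codon. Of the 12 member clusters on mRNA, 66.7% were in the 3'UTR (interval 34.9 to 90.1). These intervals count clusters, not reads, as separate draws, though clusters of 1 gene or 1 library are not replicates. The 451 clusters also include the 12, so neither a difference nor a likeness is read from the intervals. Weighted by reads, 145 of the 282 myotube reads were in the 3'UTR, 96 in the 5'UTR, 19 at the start codon, 11 in coding sequence and 11 in the intron. The 5'UTR share of reads was that of Mylpf.

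Few positions were common to the libraries. Of 3 ESC clusters 1 shared 1 nt or more, strand included, with a myotube cluster, and of 13 myotube clusters 1 overlapped an ESC cluster. Both were the Mylpf 3'UTR cluster. Among clusters on nuclear mRNA, 4.91% in ESCs and 21.1% in myotubes overlapped, and 47 pairs had identical ends.

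Since every cluster had to hold converted positions, their presence is no result, and only the level is described. In myotubes the 12 sarcomere clusters on mRNA had a median of 72.0% converted reads, and all 451 myotube clusters on nuclear mRNA had 93.1%. These sets differed in depth, with medians of 14 and 8 reads per cluster, so the 2 values are not alike in this respect. The share of converted reads ran from 54.5% to 100%, with a median of 77.9% over the 16 clusters. The highest values came from small clusters: of the 5 clusters with all reads converted, 4 had fewer than 10 reads and the fifth was Neb with 11. In the Mylpf 5'UTR cluster 62 of 96 reads were converted (64.6%, interval 54.2 to 74.1), at 11 of its 12 T, and the median of myotube 5'UTR clusters was 71.4%. In Actc1 34 of 44 reads were converted (77.3%, interval 62.2 to 88.5). The lowest share, 54.5% (interval 32.2 to 75.6), was that of the 22-read Tpm2 cluster.

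All 8 myotube 3'UTR clusters of these genes were below the 90.0% median of the 363 myotube 3'UTR clusters. The comparison differed with depth. Among clusters with at least 10 reads the median was 72.7% over 125 clusters, and 4 of the 7 sarcomere clusters were below it. Counted per T rather than per read, conversion in the 13 myotube clusters ran from 5.00% to 19.6% with a median of 9.04%, and the median over myotube clusters on nuclear mRNA was 9.61%. Conversion events equalled converted reads in every cluster of these genes, so at a like share of reads this rate is lower with more T. The lowest were the Tpm2 clusters of 22 and 11 reads, at 5.00% and 5.34%, and the Mylpf 5'UTR cluster, at 5.38%. These held 11, 15 and 12 T. The highest was the Mylpf 3'UTR cluster, with 4 T. The order thus follows T content in part and is not read as a level of crosslinking. In ESCs the 3 clusters had 11.1% (Ttn), 14.3% (Tpm2) and 18.8% (Mylpf), against a median of 9.84%.

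**Figure D4:**
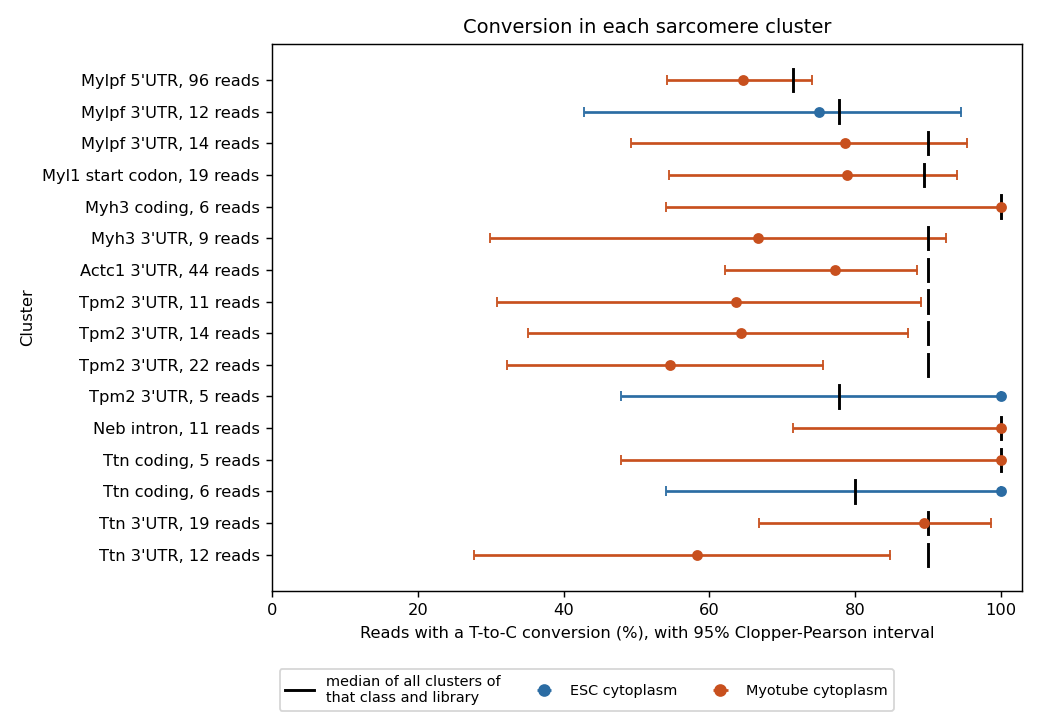
Share of reads with a T-to-C conversion (x axis, in percent) in each of the 16 clusters (y axis, with reads), with exact 95% intervals, and the median of all clusters of the same class and library as a black bar. The myotube 3'UTR clusters lie to the left of their bar at 90.0%, and small clusters have wide intervals.

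The sequences had their last base in common. All 16 ended in G, against 80.0% of ESC and 84.0% of myotube clusters on nuclear mRNA. In 14 of 16 that G was the only one, namely all 3 in ESCs and 11 of 13 in myotubes, and the shares over nuclear mRNA clusters were 60.6% and 71.2%. The exceptions were the Ttn cluster with miRNA sites and the 36-nt Tpm2 cluster. C and T made up 53.8% to 90.6% of the bases of the myotube clusters, with a median of 70.4%, and the median over myotube clusters on nuclear mRNA was 66.7%.

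miRNA sites were searched in the clusters as 7 nt complementary to miRNA bases 2 to 8, for 49 families. Of the 16 clusters 2 held a site, and of all 3548 clusters 10.6% did. The Tpm2 cluster of ESCs held the site ACATTCC of miR-1 and miR-206 at bases 8 to 14, that is chr4:43514956-43514962, with T after it. The same site was in 16 of 2659 ESC clusters (0.602%) and in 9 of 889 myotube clusters (1.01%), and none of those 9 was on a sarcomere gene. No ESC cluster lay at a gene of this family. In myotubes Mir206 had 184 reads, at chr1:20679017-20679040, but the cluster did not hold the miR-206-3p seed. In neither library did a cluster at a gene of this family hold the seed. The miRNA that guided AGO to it was not measured.

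The other cluster was that of Ttn with 19 reads in myotubes. It held the miR-26 site TACTTGA at bases 17 to 23 (chr2:76704859-76704865) and the miR-203 site CATTTCA at bases 1 to 7 (chr2:76704875-76704881). A miR-26 site was rare, in 2 of 889 myotube clusters (0.225%), the other being in Mapk6, and in 2 of 2659 ESC clusters (0.0752%). A miR-203 site was in 10 myotube clusters (1.12%). Mir26b, at chr1:74394324-74394344, had 24 reads with the miR-26 seed in myotubes and no cluster in ESCs. No cluster at a miR-203 gene was called in either library. The Mylpf, Myl1, Myh3, Actc1 and Neb clusters held no site of the families searched, miR-133 included. The 6 listed families without a reference sequence were not searched, namely miR-486, miR-122, miR-124, miR-143, miR-145 and miR-378. Flanking sequence was not searched, and no match says only that the letters are not in these windows.

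**Figure D5:**
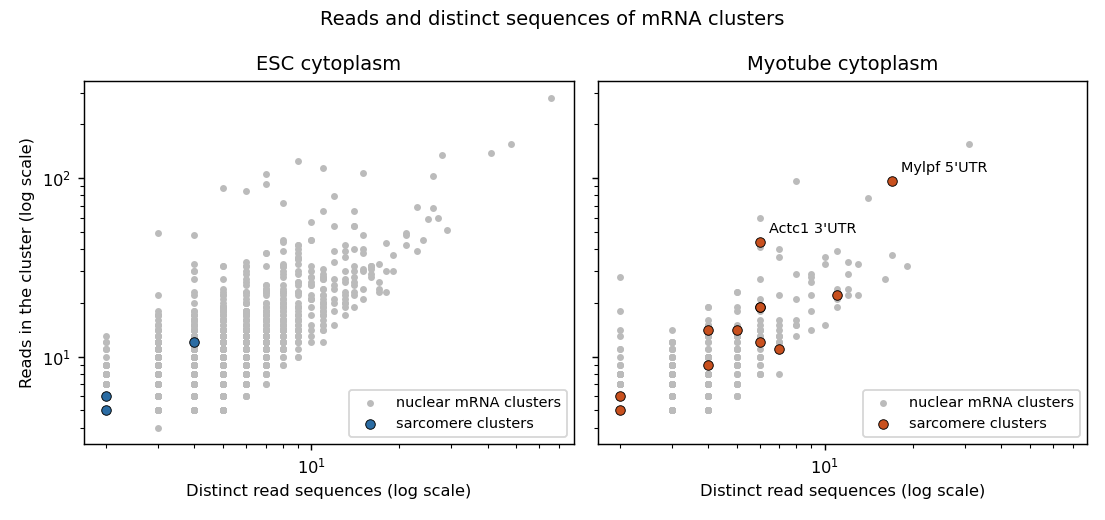
Reads (y axis, log scale) against distinct read sequences (x axis, log scale) of clusters on nuclear mRNA in ESCs (left) and myotubes (right), with the sarcomere clusters in colour. Mylpf 5'UTR has 96 reads from 17 distinct sequences and Actc1 44 from 6, while the ESC clusters of Tpm2 and Ttn rest on 2.

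Other genes of the pathway came from a wider list. Of 66 genes of the thick, thin and elastic filaments, the Z disc and sarcomere assembly, 12 had a myotube cluster and 3 an ESC cluster. Beside the 7 genes above, 5 of the other 59 were bound in myotubes and 0 in ESCs. Over 21883 protein-coding genes of RefSeq, matched by symbol, 1.6% had a cluster in myotubes and 5.72% in ESCs. The lists were chosen with earlier results known, and nothing particular to them is read from these shares. Acta2, which is also active in early muscle cells, had its 56 reads in 3 clusters, of which the 3'UTR cluster had 40. Cryab, a small heat shock protein of the Z disc, had 9 reads in coding sequence. Tnni2, the inhibitory subunit of fast troponin, had 5 reads in its 5'UTR, and the Z disc gene Ldb3 and the actin-anchoring Nrap had 5 reads each in their 3'UTRs. None of the 8 genes of assembly and turnover had a cluster, nor did the other 13 thick filament genes.

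Of 17 non-muscle counterparts, 4 had clusters in ESCs only and 1 in myotubes only. Over the 1707 genes with a cluster in either table, 85.6% had one in ESCs and 28.3% in myotubes. Nothing particular to the list is read from its counts. Beta-actin, Actb, had 104 reads in 4 ESC clusters of its 3'UTR, Actn1, an alpha-actinin, 35 reads in 2, the non-muscle myosin heavy chain Myh10 had 10 reads and the light chain Myl12a 7. In myotubes Actn4 had 12 reads in 1 cluster, which held a miR-133 site. Of 30 muscle regulators and membrane genes, myotubes had clusters on 6 and ESCs on 2. Among all RefSeq protein-coding genes the shares were 1.6% in myotubes and 5.72% in ESCs. The 6 included the myogenic regulator Myog with 49 reads, the acetylcholine receptor subunits Chrna1 with 46 and Chrnd with 6, the calcium channel subunit Cacng1 with 7, Jph1 of the triad junction with 5, and Mef2a with 23. In ESCs Mef2a had 539 reads, of which 8 were in a 3'UTR cluster and the rest in an intron. The 23 Mef2a reads of myotubes were all in the 3'UTR. Pax7 had 448 reads in ESCs, all in an intron.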

How the data were processed

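Deposited cluster tables of 1 ESC and 1 myotube cytoplasmic library were used, each matched to its sample by its worksheet name. Every title ends in "(2)", whose meaning the labels do not give, so each sample was taken as 1 library. The submitters' processing notes name bcl2fastq 2.17.1 and the mm10 build. For alignment, cluster calling and any pooling, the tool is not given in the sources used here. The tables hold raw counts per cluster of reads, distinct sequences and conversions, as deposited by the authors. The authors gave conversion and final-G shares of reads as a fraction, and a conversion specificity, deposited as log10 of converted reads over other mismatches plus 1. The mode score was deposited with no stated unit and was not used. Blank lines, 4 for ESCs and 1 for myotubes, were dropped.

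Genes were summed over their clusters and divided by all cluster reads. Ratios have exact conditional binomial 95% intervals, and a difference was called past 2-fold. With 1 library per group no test was made. Clusters were shared at 1 nt overlap on the same strand. Coordinates are 1-based on mm10. All 46 clusters inside a RefSeq (GRCm38.p6) miRNA hairpin had the hairpin's sequence at the same coordinates, so RefSeq gene positions were used for distances. Of 55 listed miRNA families, 49 had a sequence and were searched. Every cluster of the 7 genes and every gene with a cluster in the sarcomere, muscle and non-muscle lists is named, with the 3 genes nearest in ratio. Cell type marker lists are given by counts. The genes and lists were chosen with earlier results of these data known. Sequences over 30 nt, 2 clusters of Tpm2, are not printed. Python 3.11.15, pandas 2.3.3 and scipy 1.17.1 were used.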

Additional observations from a re-analysis of the deposited data

How the results depend on the processing

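No paired analysis was possible because each group held 1 library. The log2 ratio of Mylpf was -5.40 with mRNA reads outside the mitochondrial chromosome as the total, -3.00 by distinct sequences and -0.89 with 3'UTR clusters only. Its other alternatives, and all those of Tpm2 and Ttn, stayed within the intervals of the values reported. With clusters of at least 10 reads, 1 sarcomere gene, Mylpf, remained in the ESC table and in both tables, so Tpm2 and Ttn have no ratio there, and Ttn has none with 3'UTR clusters only. A miRNA site was found in 5 of the 16 clusters with 6 nt complementary to bases 2 to 7, in 1 with that match followed by A, and in 14 with all mature mouse miRNAs of the reference. For these other site settings no share over all clusters is given here, so nothing particular to the sarcomere genes is read from the counts. The cause of the shifts in this paragraph was not tested. The ESC values of Tpm2 and Ttn rest on 5 and 6 reads, close to the smallest cluster of 4, and absence of the other genes from the ESC table is a calling limit.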

Other observations

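The deposited share of reads ending in G differed by strand. In the 11 sarcomere clusters on the minus strand it was 0%, although each of their sequences ends in G, and in the 5 on the plus strand it was 94.8% to 100%. Over the whole tables, the median was 79.2% on the plus and 0% on the minus strand in ESCs, and 78.0% and 0% in myotubes. The deposited sequences ended in G in 84.2% of minus-strand clusters in ESCs and 77.3% in myotubes. The column was therefore not used.

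With sites of 6 nt, 3 further sarcomere clusters held a match. These were miR-7 in the Mylpf 5'UTR, miR-142 in the 36-nt Tpm2 cluster of myotubes and miR-203 in the Ttn coding cluster of ESCs. The share of all clusters with a 6-nt match is not given here, so these matches are not read as guides of AGO.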
